A study of Mus musculus with 2 samples.

Results

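Ribonuclease P (RNase P) and ribonuclease MRP (RNase MRP) are enzymes built on 1 RNA each and a largely common set of proteins, and their genes are described here in mouse heart. The members are every gene identifier with 1 of 9 symbols: the RNA genes Rpph1 and Rmrp and the protein genes Pop1, Pop4, Pop5, Pop7, Rpp30, Rpp38 and Rpp40. Rmrp is annotated as a pair of nested genes, so the symbols gave 10 genes (3 RNA genes and 7 protein-coding genes) of 55536 in all. RNA came from hearts of 2 female mice aged 2 months of the strain B6CASTF1/J, an F1 hybrid of C57BL/6 and CAST mice. Each animal gave 1 total RNA library, started with 300 ng, that was reduced for ribosomal RNA and carried ERCC spike-ins (synthetic control transcripts). Both belong to 1 group (n = 2) with no treatment and no engineered allele named in the labels. The labels number the hearts as separate biological replicates but give the same donor entry for both, so what follows describes levels and the difference between 2 hearts, and no condition is compared.

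RNase P removes the leader from the 5′ end of precursor tRNAs, and its catalytic site lies in the RNA that Rpph1 encodes. RNase MRP, built on the Rmrp RNA, cuts precursor ribosomal RNA, and mutations of the human RMRP gene cause cartilage-hair hypoplasia. RNA polymerase III transcribes both RNAs from promoters that lie outside the transcribed sequence, whereas the protein subunits are made from ordinary messenger RNAs.

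Rpph1 (ENSMUSG00000092837.1) lay at chr14:50807449-50807767 of mm10, on the minus strand, as a single exon of 319 bases with a GC content of 67.1%. Bases 36 to 268 of it, counted from its 5′ end, are also annotated as an untranslated first exon of Ccnb1ip1-202, a transcript of the E3 ligase gene Ccnb1ip1. The 35 bases before that exon lie upstream of Ccnb1ip1, the 51 bases after it lie in its first intron, and both ends are shown here 5′ to 3′ from the GENCODE M21 transcripts. The third sequence is a 21-base unit of Rpph1 that occurs as a tandem repeat, in which 44 bases (182 to 225) repeat with a period of 21.
Rpph1 5′ end, chr14:50807733-50807767: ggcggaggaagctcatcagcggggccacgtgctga
Rpph1 3′ end, chr14:50807449-50807499: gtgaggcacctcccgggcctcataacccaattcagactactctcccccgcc
Rpph1 repeat unit, chr14:50807566-50807586: GCGGATGCCTCCCTCGCCGGA

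Rmrp was listed as ENSMUSG00000115420.1, a gene of 281 bases at chr4:43492783-43493063, and as ENSMUSG00000088088.1, a gene of 271 bases at chr4:43492788-43493058, both on the minus strand. The longer one is shown because the shorter one, in capitals, is contained in it whole and differs only by 5 missing bases at each end. Its GC content was 63.7%. For comparison, RefSeq (assembly GRCm38.p6) gives 275 bases for Rmrp and 325 for Rpph1, so the ends of both RNAs differ by a few bases between annotations.
Rmrp, chr4:43492783-43493063: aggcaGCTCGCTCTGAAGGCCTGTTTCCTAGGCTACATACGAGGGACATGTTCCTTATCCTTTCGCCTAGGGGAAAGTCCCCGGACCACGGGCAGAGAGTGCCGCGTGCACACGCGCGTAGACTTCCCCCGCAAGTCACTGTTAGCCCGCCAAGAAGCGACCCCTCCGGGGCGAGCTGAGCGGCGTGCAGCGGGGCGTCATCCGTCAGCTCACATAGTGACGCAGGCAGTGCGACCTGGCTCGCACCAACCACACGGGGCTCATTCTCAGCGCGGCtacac

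Both RNA genes face a protein-coding gene on the opposite strand, and the bases upstream of them could be read from the RefSeq promoter windows (GRCm38.p6) of those neighbours. A stretch of 73 bases separates Rpph1 from Parp2, which encodes a DNA-damage-sensing ADP-ribose polymerase. On the strand of Rpph1 it holds TTATA, the reverse complement of TATAA, at 29 to 33 bases before the first base of Rpph1. An octamer, ATTTGCAT or ATGCAAAT on the other strand, lies 93 to 100 bases before Rpph1, inside the first exon of Parp2-201. Upstream of Rmrp, towards Ccdc107, the same octamer lies 211 to 218 bases and TTATA 159 to 163 bases before the 281-base gene, and the first 51 bases before Rmrp are not in the window used. The stretches are written 5′ to 3′ on the strand of the RNA gene with the motifs in capitals.
Rpph1 to Parp2, chr14:50807768-50807840: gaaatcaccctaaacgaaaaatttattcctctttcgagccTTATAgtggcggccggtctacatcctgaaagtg
Octamer of Rpph1, chr14:50807849-50807878: gggtagagcgcATGCAAATtacgcgctgtg
Octamer of Rmrp, chr4:43493263-43493292: gtttaagcaatATTTGCATaaaccacgccc

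Of 32851 RefSeq windows of 300 bases (250 before to 50 after a gene start), 570 held the octamer on either strand (1.74%) and 8171 held TTATA or TATAA (24.9%). Among the protein-coding members, 6 of 7 had such a window (not Pop1), and 0 of the 6 held either motif. These are matches of letters in the windows searched.

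**Figure D1:**
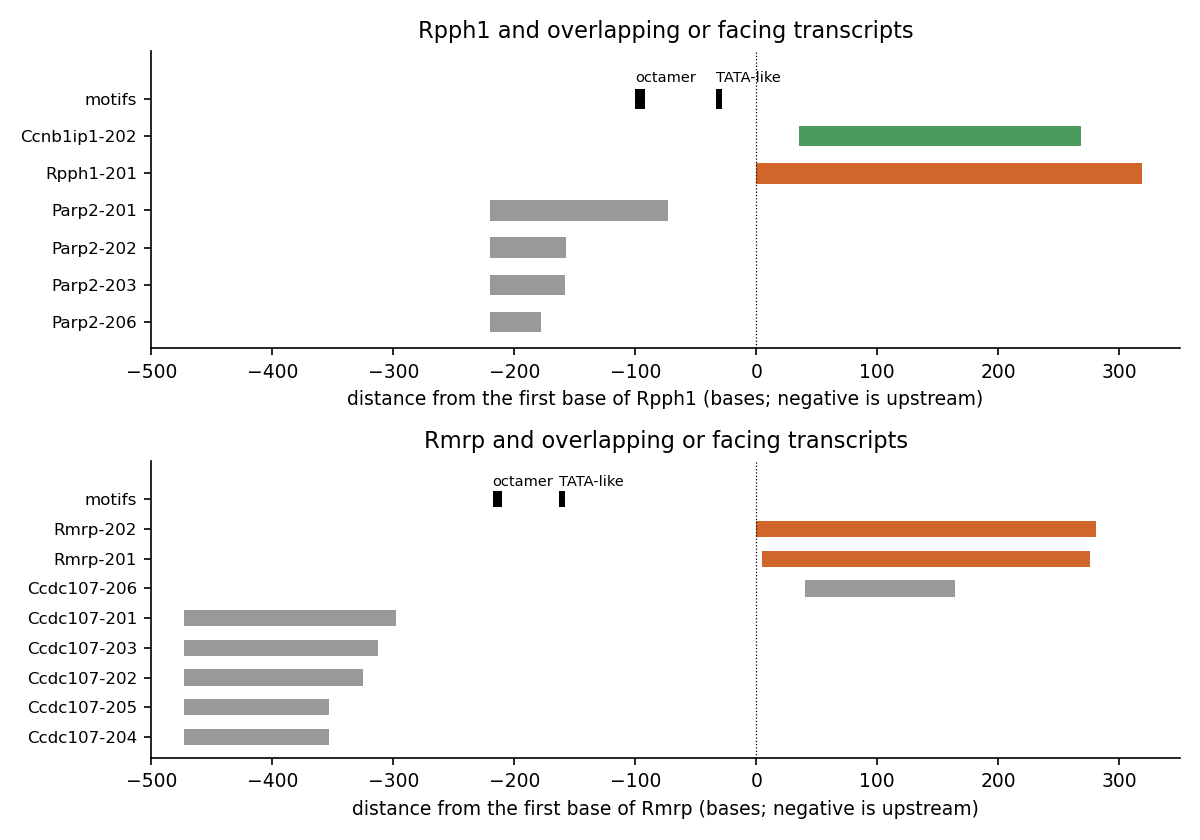
Annotated exons (bars) around Rpph1 (top) and Rmrp (bottom) by distance in bases from the first base of the RNA gene, with the RNA genes in orange, a same-strand exon in green, opposite-strand exons in grey and the motif matches in black. The Ccnb1ip1-202 exon lies inside Rpph1, Ccdc107-206 has an exon opposite Rmrp, and the octamer lies 93 to 100 bases before Rpph1 and 211 to 218 bases before Rmrp.

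The RNA components were among the most abundant annotated RNAs of both hearts, and each of the messenger RNAs of their proteins was at a small fraction of that level. Levels are in TPM, the usual length-corrected share of a transcript among all entries of a library, and expected counts, called reads here, are estimates of the reads that belong to a gene. Rpph1 had 27377 reads (3354 TPM) in animal 1 and 18253 reads (2487 TPM) in animal 2, a mean of 2921 ± 613 TPM (SD, n = 2). By mean TPM it ranked 35 of all genes. These reads were 0.0654% of the gene reads of animal 1 (95% Wilson interval 0.0646 to 0.0662%) and 0.0437% of those of animal 2 (0.043 to 0.0443%).

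Rmrp was the lower of the RNA components in both hearts. Its 281-base gene had 5693 reads (843 TPM) in animal 1 and 5220 reads (859.7 TPM) in animal 2. The 271-base gene had 4458 reads (699 TPM) in animal 1 and 4222 reads (736 TPM) in animal 2. Summed, the nested genes had 10151 and 9442 reads, or 1542 and 1596 TPM, a mean of 1569 ± 38.1 TPM (SD, n = 2). On the TPM scale Rpph1 stood 2.18-fold above summed Rmrp in animal 1 and 1.56-fold in animal 2.

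How reads were divided between overlapping genes bears on these RNA levels. Of the 220 windows of 100 bases that Rpph1 offers, 134 (60.9%) also occur in Ccnb1ip1-202, yet that transcript was assigned 1.3 reads in animal 1 and 1.29 in animal 2. The assignment spread, a posterior standard deviation deposited for each count that describes how sharply reads were assigned within 1 library, was 7.39 reads for Rpph1 in animal 1 and 6.3 in animal 2. For Rmrp, all 172 windows of the 271-base gene and 172 of the 182 windows of the 281-base gene were common to both. The spread there was 336 reads in animal 1 and 346 reads in animal 2, between 5.90% and 8.20% of each gene's reads, and the 281-base gene received 56.1% and 55.3% of the summed reads. The sum is therefore the value to read for Rmrp, and the split between its genes is uncertain. On the opposite strand, 25 windows overlap Ccdc107-206, which had 0 reads in animal 1 and 4.45 in animal 2.

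The mouse annotation also holds other ribozyme and Rprl genes, of which 1 was assigned many reads and was chosen for description after its values were seen. Only Rprl1, Rprl2 and Rprl3 were aligned to Rpph1, so kinship of the rest was not tested. Of 21 other genes of the ribozyme type or with an Rprl symbol, 3 had any reads, and nearly all belonged to Rprl3 (ENSMUSG00000088025.1, chr8:3803069-3803358, minus strand, 290 bases). Rprl3 had 2818 reads (398 TPM) in animal 1 and 1822 reads (286 TPM) in animal 2, a mean of 342 ± 78.9 TPM (SD, n = 2). That was 10.3% of the Rpph1 reads in animal 1 and 9.98% in animal 2. In a local alignment, bases 1 to 257 of Rpph1 matched bases 1 to 236 of Rprl3 with 221 of 236 aligned bases identical (93.6%) and 1 gap of 21 bases, so Rprl3 lacks 1 copy of the repeat unit. The sequence of Rprl3 is printed to show where it departs from Rpph1, with bases in capitals where they differ from Rpph1 or lie beyond the alignment.
Rprl3, chr8:3803069-3803358: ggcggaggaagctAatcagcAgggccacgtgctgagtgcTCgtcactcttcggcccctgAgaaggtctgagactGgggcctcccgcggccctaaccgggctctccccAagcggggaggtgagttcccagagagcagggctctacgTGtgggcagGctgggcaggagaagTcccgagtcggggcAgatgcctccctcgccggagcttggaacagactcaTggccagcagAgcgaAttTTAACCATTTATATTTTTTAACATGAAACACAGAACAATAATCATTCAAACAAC

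Rprl3 and Rpph1 carried nearly the same assignment spread (7.3 and 6.29 reads for Rprl3). Whether the reads assigned to Rprl3 were transcribed there was not tested.

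The protein-coding members followed the order Pop5, then Rpp30 and Pop7, then Pop4, then Rpp40 and Rpp38, then Pop1, by mean TPM. Pop5, a small core subunit, had 254 reads in each heart, at 12.9 TPM in animal 1 and 14.2 in animal 2 (13.5 ± 0.919 TPM, SD, n = 2). Rpp30 (chr19:36083716-36104777), which pairs with Pop5 in the complex, had 192 reads (6.10 TPM) in animal 1 and 177 reads (5.24 TPM) in animal 2. Pop5 stood clearly above the next gene in both hearts.

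Pop7, an Alba-type protein also called Rpp20, had 156 reads (5.12 TPM) in animal 1 and 168 reads (6.13 TPM) in animal 2. Rpp30 and Pop7 overlapped between the animals and exchanged places in the second set of values described later, so their order is not distinguished. Pop4 (chr7:38261996-38271423), an RNA-binding subunit also called Rpp29, had 209 reads (4.03 TPM) in animal 1 and 227 reads (4.75 TPM) in animal 2, below both of them in each heart.

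The lowest levels belonged to 3 genes. Rpp40 (chr13:35893472-35906359), a subunit common to both enzymes, had 65 reads (1.58 TPM) in animal 1 and 78 reads (2.35 TPM) in animal 2. Rpp38 (chr2:3328949-3332643), a protein of the L7Ae family that binds kink-turn RNA, had 56 reads (1.60 TPM) in animal 1 and 59 reads (1.88 TPM) in animal 2. Their values overlapped, and their order was not the same in both animals. Pop1 (chr15:34495304-34530648), the largest subunit and a scaffold on the RNA, had 82 reads (0.70 TPM) in animal 1 and 98 reads (1.23 TPM) in animal 2. Its TPM was below that of every other member in both hearts, although its read count was above those of Rpp38 and Rpp40, since TPM divides reads by a gene length (3275 and 2488 bases for Pop1, 1042 for Rpp38).

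From the top to the bottom of the protein-coding members, Pop5 over Pop1, the TPM ratio was 18.4 in animal 1 and 11.5 in animal 2, and 8.19 and 9.05 in the second set of values. The 7 together held 32.0 TPM in animal 1 and 35.8 in animal 2 (33.9 ± 2.65, SD, n = 2), on 1014 and 1061 reads, or 0.00242% and 0.00254% of gene reads. Rpph1 had 105 times the summed TPM of the 7 proteins' genes in animal 1 and 69.6 times in animal 2. Against Pop5 alone the ratio was 260.4 in animal 1 and 175 in animal 2. None of the 100-base windows of these 7 genes occurs in a transcript of another gene, and their assignment spread at gene level was 0. Among genes with a TPM above 0, Pop5 lay at percentile 75.7 of protein-coding genes and Pop1 at percentile 31.9. In a tissue sample, fewer cells with an RNA and less RNA per cell cannot be told apart.

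**Figure D2:**
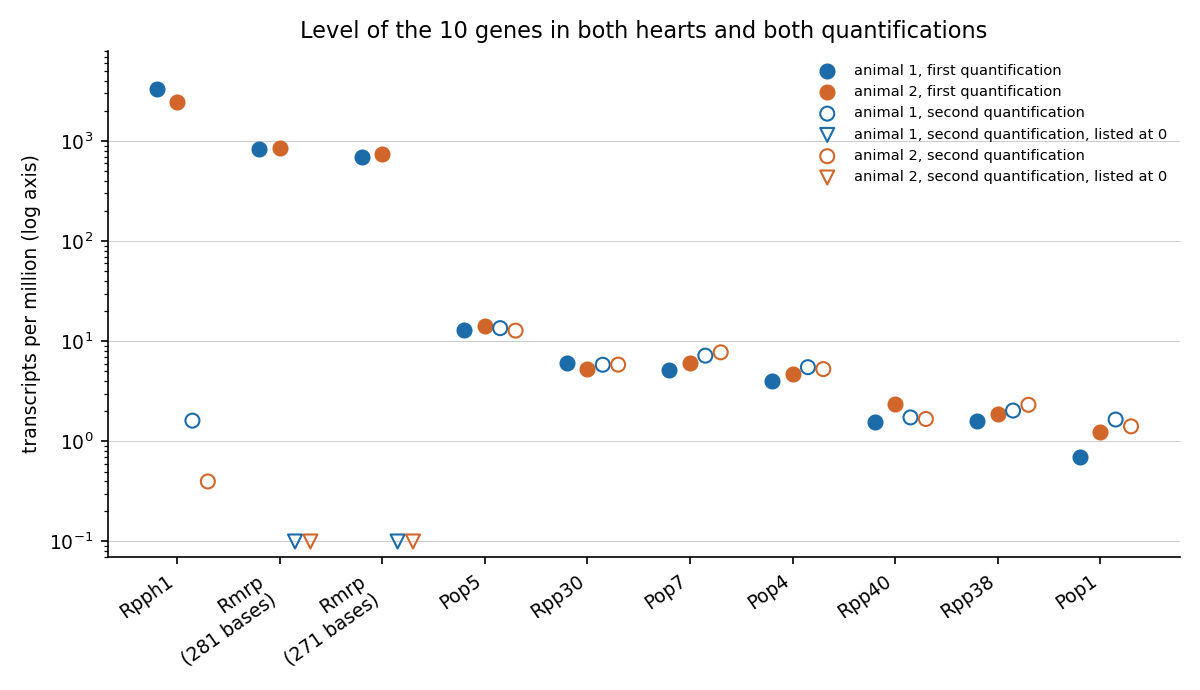
TPM on a log axis for the 10 genes in animal 1 (blue) and animal 2 (orange), filled for the first quantification and open for the second, with triangles for genes listed at 0. In the first quantification the 3 RNA genes lie between 699 and 3354 TPM and the 7 protein-coding genes between 0.70 and 14.2 TPM, and in the second the RNA genes fall to 1.61 TPM or below.

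A second quantification of the same libraries, deposited as a separate transcript table, gave read counts for the protein genes near those of the first and almost none for the RNA genes. It listed Rpph1 at 4 reads (1.61 TPM) in animal 1 and 1 read (0.398 TPM) in animal 2, and both Rmrp genes at 0 in both animals. Its sum over the 7 protein-coding members was 37.5 TPM in animal 1 and 37.1 in animal 2, on 1031 and 1070 reads. The TPM of single protein genes moved more than the sum: Pop1 stood at 1.65 and 1.41 TPM instead of 0.70 and 1.23, and the mean TPM of Pop1, Pop4, Pop7 and Rpp38 each moved by more than the SD between the animals.

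Genes in the length class of the RNA components behaved likewise. Of 54 genes of 200 to 350 bases with at least 100 reads on average, 47 (87.0%) had under 1% of their first-quantification reads in the second, with a median of 0%. Of 31 genes of at most 200 bases all 31 did. Rpph1, both Rmrp genes and Rprl3 are themselves among the 47. Over 10194 genes longer than 1000 bases the median was 107%. In the second table the effective length, the number of start positions assumed for a fragment, was 70.8 bases for Rpph1 against 220 in the first. Rprl3 was also listed at 0 in it. The absolute level of Rpph1 and Rmrp thus rests on the first quantification alone.

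**Figure D3:**
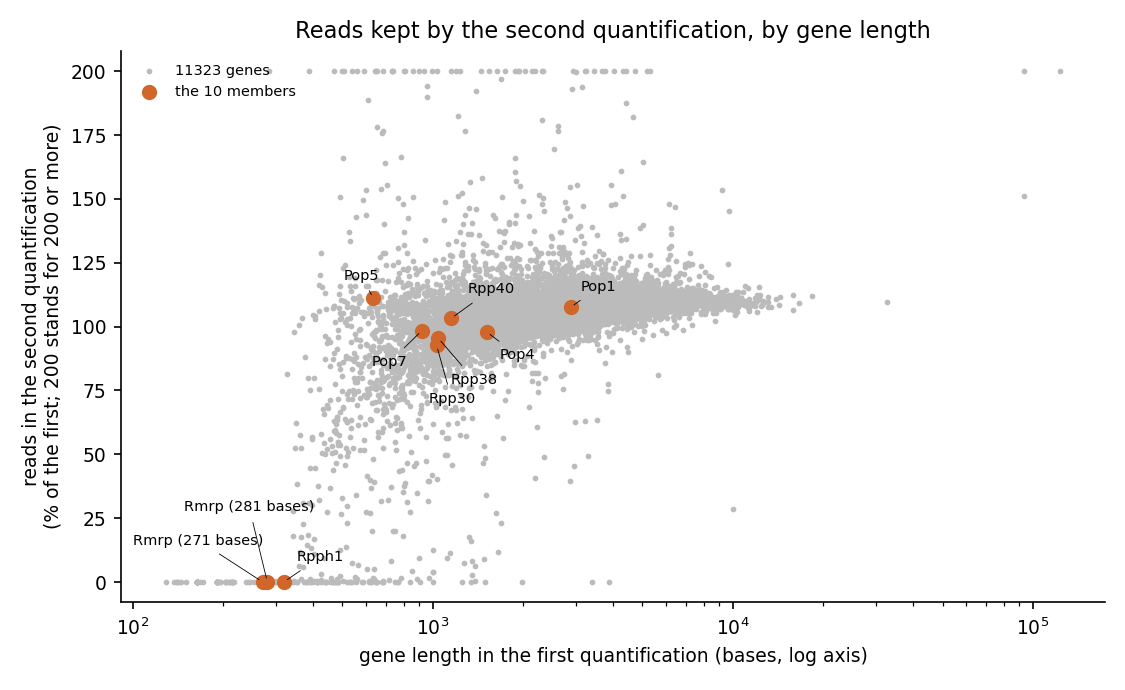
Reads in the second quantification as a percentage of those in the first (200 stands for 200 or more) against gene length on a log axis, for genes with at least 100 reads on average (grey) and the 10 members (orange). Rpph1 and both Rmrp genes sit at the bottom with most other genes of up to 350 bases, and the 7 protein-coding members sit within the main cloud near 100%.

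Between the hearts, the RNA genes were lower in animal 2 by less than 2-fold and no protein gene passed the test. Reads were scaled by TMM, which sets library sizes so that most genes are alike, and each gene was tested by a two-sided exact binomial test with Benjamini-Hochberg adjustment over 16133 genes with at least 20 reads. This test compares 2 libraries and sees counting error alone, so it has no replicate check. At an adjusted p under 0.05 and at least 2-fold, 0 of the 10 members passed, where 222 of all tested genes did (1.38%, of which 0.483% higher in animal 2 and 0.893% higher in animal 1). With no fold minimum 3 of 10 members differed, where 1831 genes did (11.3%), and all 3 were RNA genes that were higher in animal 1, a direction in which 4.75% of tested genes differed. No member differed in the other direction, where 6.6% of genes did. The test detects smaller differences at higher read counts, and these shares are not matched for read count. Each RNA gene had at least 4222 reads in each library, and each protein gene at most 254. Myh6, a heart muscle gene with far more reads, also differed at a ratio of 0.949. The exact test takes no account of the assignment spread of the nested Rmrp genes; with these summed, 2 of 9 members differed, Rpph1 and Rmrp. With a minimum of 1.5-fold, 1 of the 10 members passed, Rpph1, where 407 genes did (2.52%, of which 1.41% higher in animal 1).

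Rpph1 had a ratio of animal 2 over animal 1 of 0.632 (95% exact interval 0.620 to 0.644), a log2 ratio of -0.66, and its adjusted p in the exact test was too small to be represented. The ratio of the 281-base Rmrp gene was 0.869 (0.837 to 0.903), with an adjusted p of 1.58e-11 in the same exact test. For the 271-base gene it was 0.898 (0.861 to 0.937), with an adjusted p of 1.44e-05. Summed before the exact test, the Rmrp genes gave a ratio of 0.882 (0.857 to 0.907), a log2 ratio of -0.18 and an adjusted p of 1.19e-16. The intervals of Rpph1 and of summed Rmrp do not overlap.

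The scale matters for Rmrp, whose TPM went the other way. TPM rose by a median log2 of 0.22 from animal 1 to animal 2 over the tested genes, while the scaled reads had a median log2 ratio of -0.0024. The TPM ratio of animal 2 over animal 1 was 1.02 for the 281-base Rmrp gene and 1.05 for the 271-base gene, against 0.742 for Rpph1, so both Rmrp genes moved by less than the median gene on that scale. With total gene reads as library sizes, the 271-base gene had an adjusted p of 0.0638 in the exact test, and Rpph1 kept a log2 ratio of -0.58. With spike-in reads as library sizes the log2 ratio of Rpph1 was -0.64.

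The protein-coding members varied little on the scaled reads. Rpp30 had the lowest ratio, 0.874 (0.709 to 1.08), and Rpp40 the highest, 1.14 (0.808 to 1.61). Ratios were above 1 in 4 of the 7 and their median log2 ratio was 0.030, beside -0.0024 over all tested genes. Pop5, with the most reads, had a ratio of 0.948 (0.794 to 1.13), and Pop1 one of 1.13 (0.836 to 1.54). All 7 intervals include 1 and lie within 2-fold either way, and the smallest adjusted p in the exact test was 0.517, for Rpp30. At these read counts, differences small enough to lie inside these intervals were not detectable.

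Other RNA polymerase III products were lower in animal 2 as well. The 7SK RNA gene Rn7sk, which encodes a regulator of transcription elongation, had 129987 reads (15102 TPM) in animal 1 and 115023 reads (14863 TPM) in animal 2, a log2 ratio of scaled reads of -0.25. The 7SL genes Rn7s1 and Rn7s2, which encode the RNA of the signal recognition particle, had 794629 and 437990 reads each, a log2 ratio of -0.94. All 3 genes differed with no fold minimum and 0 of the 3 passed 2-fold. Rn7s1 and Rn7s2 had identical reads and TPM in both animals, so they are not separate observations. Of the remaining RNAs on that list, Rny1 had 4 reads in animal 1 and 2 in animal 2, Vaultrc5 had 13 and 4, and Rny3 had 0 in both, which allows up to 3 reads in each library (0.0717 and 0.0718 CPM of gene reads).

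A wider set, assembled after these values were seen, held 72 non-coding genes of at most 350 bases whose spread was under 10% in both libraries, the 3 RNA members among them. Each had at least 20 reads over both libraries. Both nested Rmrp genes and both Rn7s1 and Rn7s2 are counted, so the 72 are not all separate observations. Of the 72, 65 had a log2 ratio below 0, with a median of -0.71 and quartiles of -1.29 and -0.30. At an adjusted p under 0.05 in the exact test and at least 2-fold, 25 of the 72 passed. All 25 were higher in animal 1, a direction in which 0.893% of all tested genes passed. Rpph1 at -0.66 lay between those quartiles, and Rmrp lay nearer to 0 than the upper one. Rprl3 had a ratio of 0.613 (0.578 to 0.650), and its interval overlapped that of Rpph1.

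**Figure D4:**
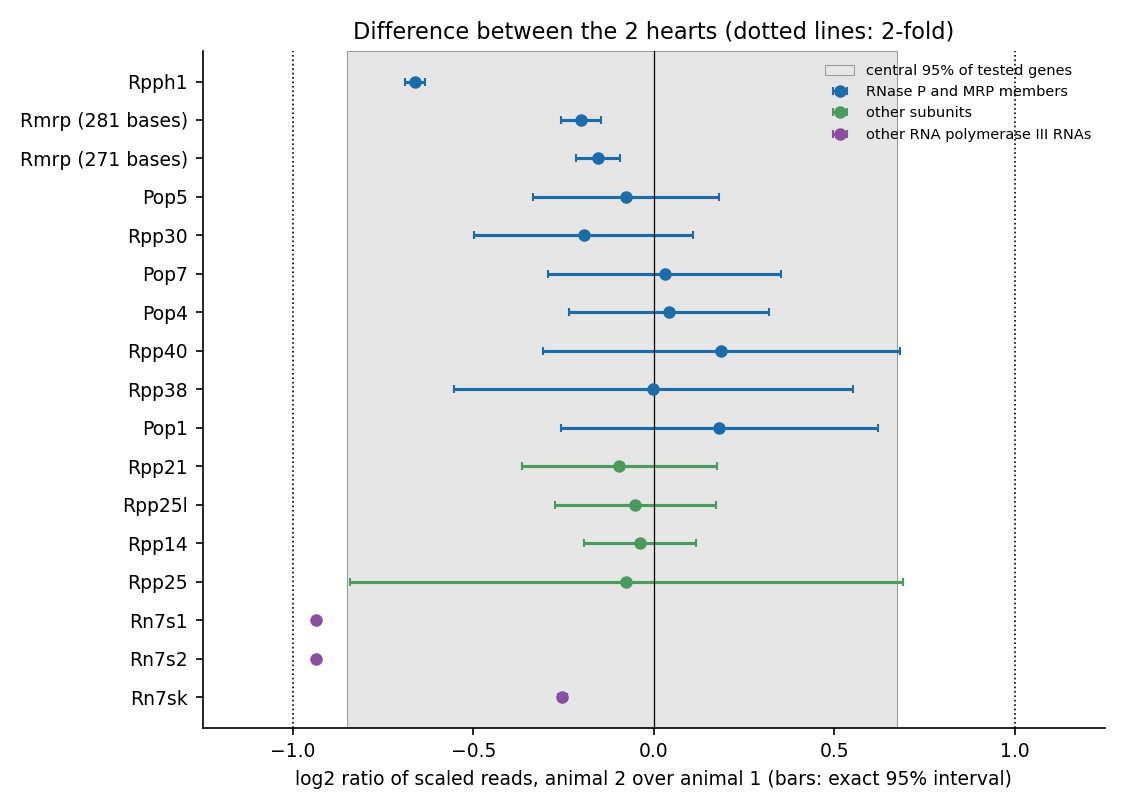
Log2 ratio of scaled reads, animal 2 over animal 1, with exact 95% intervals for the members (blue), the other subunits (green) and other RNA polymerase III RNAs (purple), with 2-fold marked by dotted lines and the central 95% of tested genes (-0.85 to 0.67) shaded. Rpph1 lies at -0.66, the Rmrp genes at -0.20 and -0.16, and the intervals of all protein genes cross 0.

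Much of the signal of some protein genes was assigned to transcripts that do not encode the protein, and how much depended on the quantification. Pop5 was the clearest case. In the first quantification its coding transcript Pop5-201 held 18.4% of the gene's TPM in animal 1 and 19.6% in animal 2, while Pop5-202, a processed transcript of 575 bases, held 64.4% and 65.8%. In the second quantification Pop5-201 held 79.6% and 79.3%. The animals were alike within each quantification, and the quantifications were far apart on the leading transcript of Pop5, although the gene's total was similar (13.5 TPM in the first and 13.2 in the second, as means). The spread of Pop5-201 in the first was 15.2 reads in animal 1 and 13.6 in animal 2. Its shortest transcript, Pop5-206 of 380 bases, had 16.5 and 18.5 reads in the first and 0 in the second. Whether transcript length bears on these shares was not tested.

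Pop4 was divided in both. Its coding transcript Pop4-201 held 51.1% and 54.8% in the first quantification and 43.2% and 52.8% in the second. A nonsense-mediated decay transcript, Pop4-206, held 32.1% in animal 1 and 13.3% in animal 2 in the first, on 38.1 and 16.8 reads with a spread of 9.86 and 8.57 reads, and 33.3% and 29.3% in the second. Rpp30 was mostly coding, with Rpp30-201 at 69.2% and 85.9% in the first quantification and 94.6% and 83.0% in the second.

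For Pop1 a few reads moved the shares. All of its TPM in animal 1 lay on the coding transcript Pop1-202, and in animal 2 the retained-intron transcript Pop1-204, of 794 bases, took 31.7% on 9.05 reads with a spread of 3.61. The deposited gene length, a mean over transcripts weighted by level, was 3275 bases in animal 1 and 2488 in animal 2. The TPM ratio of Pop1 between the animals was 1.76, beside 1.13 for its scaled reads. Gene length is only part of that gap, since TPM rose by a median log2 of 0.22 over all tested genes. In the second quantification the coding share was 50.6% in animal 1 and 64.5% in animal 2.

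Rpp40 was at 99.0% and 98.7% coding in the first quantification and 94.4% and 96.9% in the second. Within it, Rpp40-203, a coding fragment of 276 bases, took 15.7% and 33.8% of TPM on 1.63 and 4.7 reads in the first and 0 in the second. Pop7 had a pair of coding transcripts, with 63.6% and 63.3% on Pop7-201 in the first quantification, and Rpp38 had a single transcript.

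**Figure D5:**
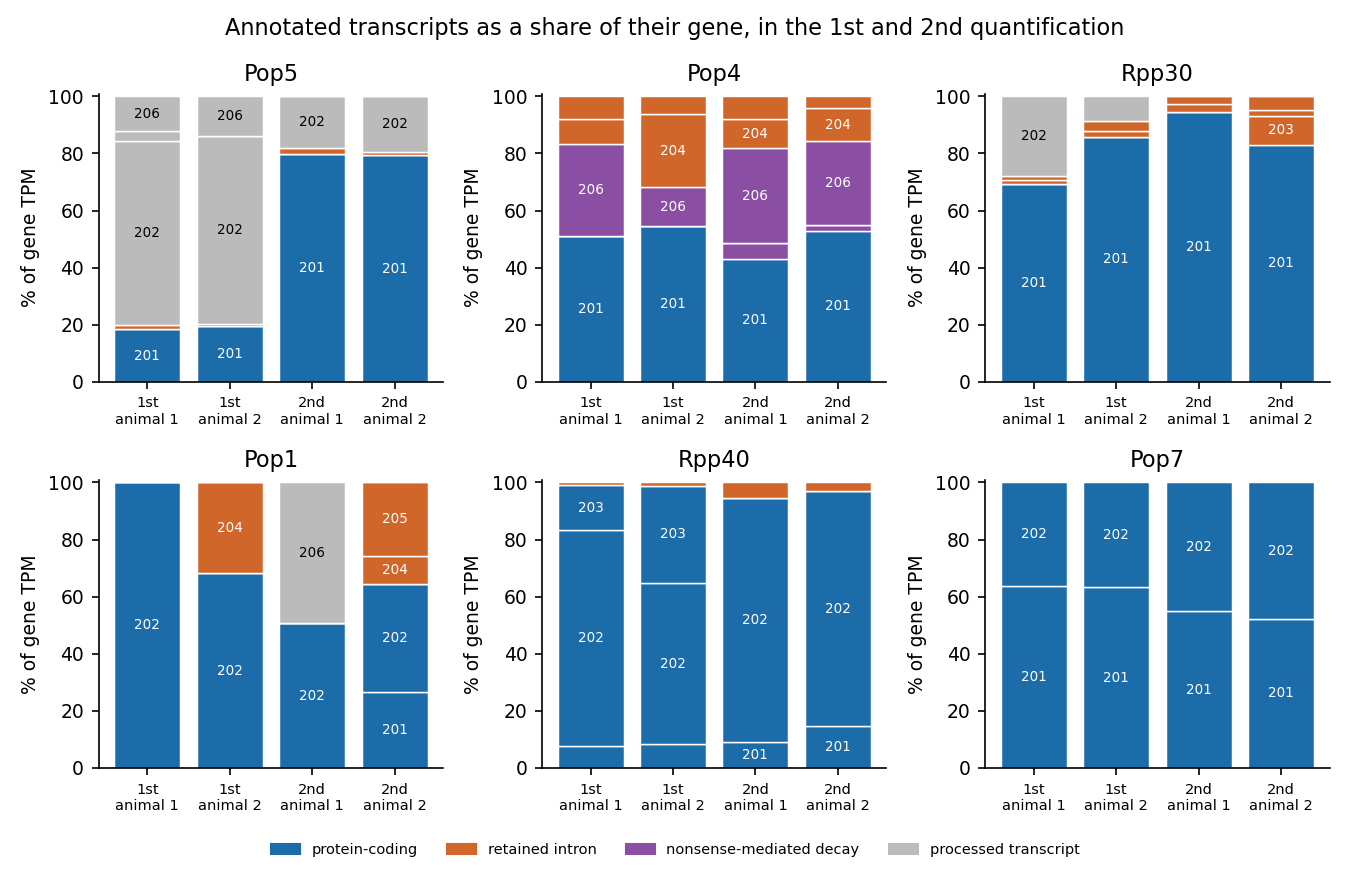
Share of each gene's TPM (percent) held by its annotated transcripts, numbered as in the annotation and coloured by type, in the 1st and 2nd quantification of both animals. Pop5 turns from mostly Pop5-202 (64.4 and 65.8%) in the first to mostly Pop5-201 (79.6 and 79.3%) in the second, whereas Pop7 and Rpp40 are coding in both.

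Several members overlap or adjoin other genes. Pop5 (chr5:115235836-115245351) overlaps the span of Rnf10, an E3 ligase gene on the opposite strand with 13431 and 14108 reads, by 3940 bases. No 100-base window of the Pop5 transcripts occurs on either strand in a transcript of Rnf10. Pop7 (chr5:137501438-137502518) lies inside the annotated span of Epo, the erythropoietin gene, on the same strand, and Epo had 0 reads in both hearts. Rpp40 and Pop4 have antisense non-coding neighbours, Gm48746 with 0 reads in both hearts and Gm44767 with 1 read in animal 1 and 0 in animal 2. The sources used here do not state a strand setting for the counting.

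The neighbours that face the RNA genes had ordinary messenger RNA levels. Parp2 had 315 reads (4.76 TPM) and 331 reads (6.47 TPM), so the TPM of Rpph1 was 705 times that of Parp2 in animal 1 and 384 times in animal 2. Ccdc107 had 266 reads (9.95 TPM) and 314 reads (13.1 TPM). Neither passed the test between the hearts, with ratios of 0.996 (0.851 to 1.17) for Parp2 and 1.12 (0.948 to 1.32) for Ccdc107.

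In the first quantification, the other protein subunits, which are no members, reached a level slightly above that of Pop5 at most. In the second quantification the highest of them, Rpp21, had 19.2 TPM in animal 1 and 18.6 in animal 2, and Pop5 13.5 and 12.8. The values that follow are from the first. The remaining 4 subunits summed to 36.7 TPM in animal 1 and 39.7 in animal 2. Rpp21, a subunit described for RNase P, had 15.0 ± 0.856 TPM (SD, n = 2), Rpp25l 12.5 ± 1.10 and Rpp14 10.1 ± 0.113. Rpp25, the partner of Pop7 and a paralogue of Rpp25l, had 0.665 ± 0.0495 TPM. Of the 4, 0 passed 2-fold and 0 differed with no fold minimum.

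Mitochondria process their tRNAs with a separate RNase P made of protein alone. Its 3 subunits summed to 94.5 TPM in animal 1 and 109 in animal 2, nearly all from Hsd17b10, a dehydrogenase that doubles as a subunit, at 86.7 and 99.0 TPM. The methyltransferase gene Trmt10c had 4.38 and 5.29 TPM, and 1110008L16Rik, listed for the nuclease subunit, 3.39 and 4.32 TPM. Trmt10c and the nuclease gene were thus near the level of Pop4, and 0 of the 3 passed the test with or without a fold minimum.

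Of 12 genes of tRNA maturation, 0 passed 2-fold and 1 differed with no fold minimum, higher in animal 1. The ligase gene Rtcb (28.8 ± 2.81 TPM, SD, n = 2), the splicing endonuclease gene Tsen34 (23.6 and 26.4 TPM), the La protein gene Ssb (24.2 ± 2.10) and the CCA-adding enzyme gene Trnt1 (13.1 ± 0.431) had the highest levels. Trnt1 was the 1 that differed, with a ratio of 0.823 (0.735 to 0.920). The median log2 ratio of the 12 was -0.038.

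Of 13 genes of ribosomal RNA processing, the pathway of RNase MRP, 0 passed 2-fold and 1 differed with no fold minimum, higher in animal 1. That was the exonuclease gene Xrn2, with a ratio of 0.868 (0.795 to 0.946), named here for that difference after its value was seen. Exosc10, of the RNA exosome, led the list at 15.9 ± 2.09 TPM (SD, n = 2), followed by Las1l (14.4 ± 1.05), Pes1 (11.1 ± 0.813) and Mtrex (10.2 ± 0.926). The median log2 ratio of the 13 was -0.015.

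None of the listed genes of the machinery that transcribes Rpph1 and Rmrp, or of its repressor, passed the test between the hearts. The lists do not cover all of that machinery. They hold 11 RNA polymerase III subunit genes, and 11 genes of factors for external promoters with the repressor gene Maf1 counted among them. In both lists 0 passed 2-fold and 0 differed with no fold minimum, with median log2 ratios of -0.0085 and -0.018. Polr3gl (10.6 ± 0.156 TPM, SD, n = 2) and Polr3c (9.39 ± 0.651) led the subunits, followed by Polr3d (6.01 ± 0.467) and Crcp (4.92 ± 1.17). Of the other list, Maf1, the repressor of RNA polymerase III, had 39.0 ± 6.89 TPM, Bdp1 10.9 ± 0.488, and the SNAPc subunit genes Snapc5 and Snapc2 8.58 ± 2.03 and 6.57 ± 0.799.

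Sequencing depth was nearly equal, at 41862417 and 41790009 reads on genes and 251136 and 260203 on spike-ins. The label of heart was checked against 7 markers of heart muscle, which summed to 28153 and 32412 TPM (on scaled reads 4 of the 7 differed lower in animal 2 and 1 higher, with no fold minimum), and against 6 markers of liver, lung and thymus, which summed to 0.62 and 0.39 TPM. The 3 endothelial markers (99.2 and 132 TPM) and the 3 fibroblast markers (166 and 218 TPM) all differed with no fold minimum, higher in animal 2, as did 1 of 3 macrophage markers (sums 46.7 and 61.5 TPM). Of 3 erythroid markers (17735 and 20401 TPM) 1 differed in each direction. None of these passed 2-fold, and their part in the ratios of the RNA genes was not tested. The p-values here measure the difference between these 2 libraries, which includes any technical difference.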

How the data were processed

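Gene names, types and coordinates came from GENCODE M21 (mm10), matched on identifiers (55536 genes). The expected counts and TPM of the gene and first transcript tables were computed by the authors, with RSEM column names in the file headers, as were the percent shares of each transcript (for the first quantification) and the posterior standard deviation, which is the assignment spread. Estimated counts and TPM of a second transcript table were also deposited, with kallisto column names per the file headers, and their transcript shares were computed here. The sources used here give no aligner, tool version or filter. Entries without a gene name held 4 and 2 reads (9.5e-06% and 4.76e-06%) and stayed out.

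After rounding of the expected counts, a gene needed 20 reads over both libraries. Library sizes were scaled by TMM in edgeR 4.0.16 (R 4.3.3), and a two-sided exact binomial test was run per gene (scipy 1.17.1), with Benjamini-Hochberg adjustment at 0.05. Ratios are of scaled reads, and log2 ratios carry a prior count of 0.5. The test was checked on simulated counts that carried counting error alone, so the check does not cover variation between animals or libraries. Intervals and limits of 3 reads cover counting error only, since reads carry no molecular identifiers. Alternatives were other library sizes, DESeq2 1.42.0 size factors, no filter, the second quantification, other fold minimums and TPM rescaled without mitochondrial genes, 7SL and spike-ins.

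Every member was named, with up to 4 genes by level of each other list, every gene passing 2-fold and those at 0 in both libraries. The members and lists were chosen with earlier results of these data known. Promoter windows came from RefSeq (GRCm38.p6). Sequence inside the untranslated exon of Ccnb1ip1-202 is not printed except the repeat unit.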

Additional observations from a re-analysis of the deposited data

How the results depend on the processing

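No paired analysis was possible because there is 1 group. Of 49 alternative values for the ratios of the members, 45 kept their direction and their side of the 2-fold threshold. The 4 others changed sign close to 0: the log2 ratio of Pop5 (-0.077) became 0.0025 with total reads as library sizes, and that of Rpp38 (-0.0022) became 0.077 with total reads, 0.024 with spike-in reads and 0.14 in the second quantification. The RNA genes could not be tested in the second quantification. The number of genes passing in the comparison of animals was 180 higher in animal 2 and 227 higher in animal 1 with a minimum of 1.5-fold, where Rpph1 passed too, and 42 and 64 among genes with a spread under 10%, against 78 and 144.

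The summed level of the RNA genes (4489 TPM) was 8410.4 TPM without mitochondrial genes, 7SL and spike-ins and 1.01 TPM in the second quantification, and that of the 7 protein-coding members (33.9 TPM) was 62.9 and 37.3 TPM. Leaving out 1 animal gave 4083 to 4896 TPM and 32.0 to 35.8 TPM. Of 60 alternative levels 30 moved by more than the SD between the animals, 12 of them by the first of these rescalings, which raises every gene alike within a library. The 12 levels without animal 1 and the 12 without animal 2 could not move, because with 2 animals that shift is always smaller than the SD. In the second quantification 9 levels moved and 3 did not. As scaled reads per base of effective length 7 moved and 3 did not, and 2 moved with the Rmrp genes summed. Summing the Rmrp genes before the test, and levels as scaled reads per base of effective length, were added after seeing the data. With 2 animals the SDs rest on 1 difference each, and the test between animals did not use them.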
